A study of Mus musculus with 9 samples.

Results

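The transcripts of 9 genes that let white blood cells stop on and cross vessel walls were followed in mouse liver 2 days after an antibody that switches on CD40, a receptor of the TNF receptor family on antigen-presenting cells. They were taken by name from the 24326 genes with a value in every mouse. They encode the endothelial ligands Icam1, Icam2 and Vcam1, the selectins Sele and Selp, the selectin ligand Selplg, and the integrin chains Itgal, Itgb2 and Itga4. Bulk liver RNA was compared between 3 mice given anti-CD40 (clone FGK45, labelled CD40, mice 2, 5 and 9) and 6 control mice given PBS (mice 3, 4, 7, 8, 11 and 12), all wild-type C57BL/6 and all sampled at 48 hours. The sample records name no age, sex or batch. In the animal experiments of the study, mice in which the antibody failed to lower blood B cells were left out, so the treated group stands for responding mice. Each mouse gave 1 library, and the p-values measure the spread between these mice.

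A white blood cell leaves the blood in steps. Selectins on activated endothelium catch the cell by binding sugars carried on PSGL-1, the product of Selplg, and the cell rolls. Chemokines then switch its integrins to a sticky form. LFA-1, made of the chains encoded by Itgal and Itgb2, binds ICAM-1 and ICAM-2, and VLA-4, made of the Itga4 chain with β1, binds VCAM-1. E-selectin, VCAM-1 and ICAM-1 are known as cytokine-inducible endothelial proteins, whereas ICAM-2 is present on resting endothelium. In the sinusoids of the liver, where flow is slow, selectins are known to matter less than in other vascular beds.

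Values are FPKM, read numbers scaled to transcript length and to the size of the library, and the deposited table has a floor of 0.01. Because the libraries were read from the 3′ end, dividing by transcript length distorts the order of genes, so levels are compared between mice and not between genes. The table states no read totals. From the steps between low values and the transcript lengths of 523 genes with 1 annotated transcript, the implied depth was about 17600000 reads per library (quartiles 16000000 and 18400000), and the depth of the 9 mice relative to their geometric mean lay between 0.870 and 1.13. Differences were tested with limma on log2(FPKM + 0.1) in the 13807 genes whose FPKM averaged 0.1 or more, with Benjamini-Hochberg adjustment over all of them and a threshold of 0.05. In these livers 45.1% of the genes tested were called, 23.5% higher and 21.7% lower, and in 22.7% all treated mice lay above all controls and in 19.6% below them. Of the 9 members, 8 passed the filter on low values, and Sele did not. All 8 were called higher and 0 lower, with a median log2 fold change of 2.12, against 0.0056 over all genes tested. In 7 of the 8 the groups did not overlap, and Selp was the exception. In a bulk sample, more cells of a type and more RNA per cell cannot be told apart.

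Among the endothelial ligands, Icam1 changed most. Icam1, on chromosome 9 of mm10 from 21015960 to 21028796, encodes ICAM-1, the main ligand of LFA-1. Its FPKM was 14.4, 11.6 and 12.8 in treated mice 2, 5 and 9 and in the control mice it ran from 1.24 through a median of 1.39 to 2.05. The lowest treated mouse was 5.65 times the highest control. The means were 12.9 ± 1.38 (SD, n = 3) and 1.49 ± 0.299 (SD, n = 6), an 8.65-fold difference and 3.04 in log2 units (SE 0.17, limma adjusted p = 7.11e-07). By log2 fold change Icam1 ranked 266 among the 13807 genes tested. An antisense gene on the other strand, Gm47079, shares 511 bases of exon with Icam1, and whether the authors counted by strand is not given in the sources used here.

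Vcam1, on chromosome 3 from 116110020 to 116129688, encodes the ligand of VLA-4, which in mice is carried by activated endothelium and also by resident macrophages of the liver. Its FPKM was 138, 106 and 101 in treated mice 2, 5 and 9 and ran from 15.6 through 23.4 to 37.9 in the control mice. All treated mice were above all controls, although the controls themselves differed more than 2-fold. The means were 115 ± 20.3 (SD, n = 3) and 26.2 ± 9.45 (SD, n = 6), a 4.38-fold difference and 2.19 in log2 units (SE 0.28, limma adjusted p = 0.000123). Markers of Kupffer cells, the resident macrophages, moved the other way, with 7 of 7 called lower against 21.7% of all genes tested. Of these, Cd163 had a mean FPKM of 0.0634 in treated mice and passed the filter only through the controls (7.26). The summed FPKM of the list was 39.1 to 50.7 in treated mice against 290 to 466 in controls. The part of Kupffer cells in the Vcam1 values was not tested.

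Icam2, on chromosome 11 from 106377656 to 106382641, changed least among the members whose groups did not overlap. Its FPKM was 23.8, 29.1 and 23.4 in treated mice 2, 5 and 9 and ran from 13.2 through 18.1 to 18.7 in the control mice. The gap between the groups was narrow, with the lowest treated mouse 1.25 times the highest control. The means were 25.4 ± 3.14 (SD, n = 3) and 16.8 ± 2.35 (SD, n = 6), a 1.51-fold difference and 0.60 in log2 units (95% interval 0.28 to 0.92, limma adjusted p = 0.00643).

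The 2 ICAM genes of the list thus moved by unequal amounts. Within each mouse the log2 ratio of Icam1 to Icam2 was 2.1 to 2.69 above the control mean in treated mice and between -0.36 and 0.33 in the controls. The difference of 2.44 passed a 2-sided exact permutation test with 84 possible splits (p = 0.0238, the smallest it can give, or 0.0429 adjusted over the 18 ratios examined). Vcam1 rose less than Icam1 on the same scale, by -0.85 (exact permutation p = 0.0238, adjusted p = 0.0429), but with a pseudocount of 1 in place of 0.1 this difference was -0.34 (exact permutation p = 0.214).

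**Figure D1:**
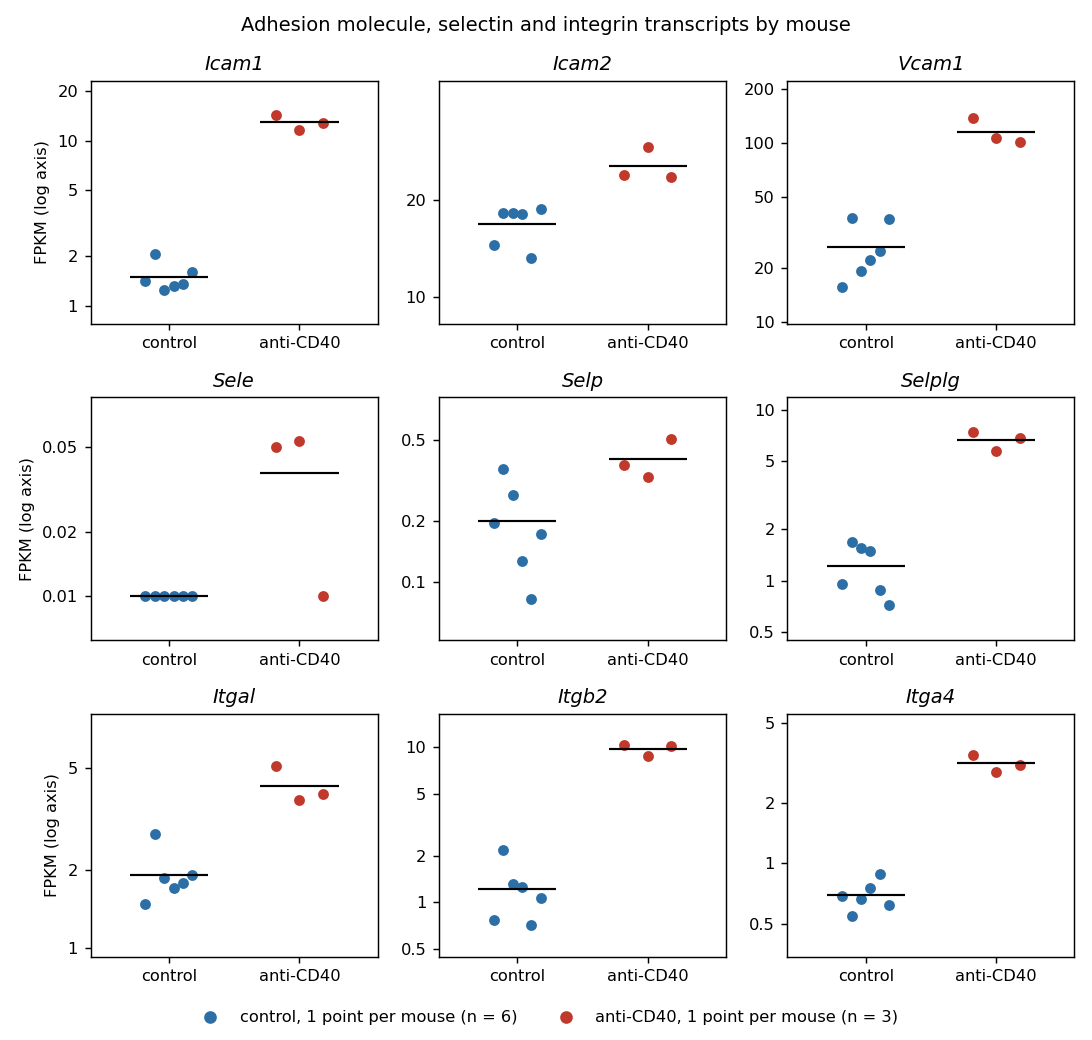
FPKM of the 9 genes in each mouse, on a log axis of its own for each gene, with black lines at the group means. The 3 anti-CD40 mice lie above all 6 controls for Icam1, Icam2, Vcam1, Selplg, Itgal, Itgb2 and Itga4, whereas for Selp 1 control lies among them and for Sele the controls and anti-CD40 mouse 9 are at the floor of 0.01.

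E-selectin is the other classical inducible molecule of endothelium, and its gene Sele (chromosome 1, from 164048234 to 164057677) was barely read. The FPKM was 0.050, 0.0531 and 0.01 in treated mice 2, 5 and 9 and 0.01 in every control mouse, where 0.01 is the floor. The steps between low values give equal numbers of reads in mice 2 and 5. The smallest number possible is 1 read in each, and at the implied depth and the transcript's 2912 bases the nearest whole multiple is 3 reads in each. No fold change is given, since both groups lie at or under the limit that a count of 0 allows (3 reads). The exact permutation test gave p = 0.167, and whether more reads would show a change in Sele was not tested.

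Icam1 and Sele are set side by side here because both belong to the cytokine-inducible genes of the list, whose promoters are known for binding sites for NF-κB. RefSeq promoters (GRCm38.p6, the build called mm10) from 250 bases before to 50 after the start were at hand for 4 of the 9 members. In both sequences below, read 5′ to 3′ on the plus strand, capitals mark matches to GGANNTTCC, TTCNNNGAA and TGACTCA, letters that fall within the binding motifs of NF-κB, STAT factors and AP-1.
Icam1, chr9:21015690-21015989: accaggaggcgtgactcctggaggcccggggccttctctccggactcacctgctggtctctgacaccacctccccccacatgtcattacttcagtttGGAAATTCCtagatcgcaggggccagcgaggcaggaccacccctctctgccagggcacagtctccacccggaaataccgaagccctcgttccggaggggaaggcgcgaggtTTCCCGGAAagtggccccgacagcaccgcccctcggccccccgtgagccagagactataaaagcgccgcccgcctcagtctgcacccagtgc
Sele, chr1:164047984-164048283: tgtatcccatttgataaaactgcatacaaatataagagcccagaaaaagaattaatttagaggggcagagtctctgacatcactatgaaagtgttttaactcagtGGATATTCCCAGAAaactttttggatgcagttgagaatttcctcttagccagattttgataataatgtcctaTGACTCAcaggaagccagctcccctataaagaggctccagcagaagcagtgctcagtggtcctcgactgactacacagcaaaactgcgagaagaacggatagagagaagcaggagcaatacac

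Both promoters hold GGANNTTCC, from -153 to -145 in Icam1 and from -145 to -137 in Sele, counted from the start. Over the 32851 promoters of the RefSeq table, searched on both strands, 4.26% hold it. TTCNNNGAA, held by 8.30% of all promoters, lies from -42 to -34 in Icam1 and from -140 to -132 in Sele, where it overlaps the first motif. TGACTCA, held by 5.20%, was found in Sele from -73 to -67. A repeat that falls within the motif of interferon regulatory factors, held by 3.44%, was in neither. None of these letters was found in the promoters of Selp and Itga4. The patterns were chosen after the sequences had been seen, and a match describes letters and not a bound site.

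P-selectin, encoded by Selp, is stored in endothelial granules and in platelets and moves to the surface within minutes. Its FPKM was 0.376, 0.328 and 0.511 in treated mice 2, 5 and 9 and ran from 0.0821 through 0.183 to 0.361 in the control mice. Control mouse 4 was above treated mouse 5, and the other 5 controls were below every treated mouse. In reads these values are close to 27, 22 and 32 against 5 to 24, each within 0.0701 of a whole read. The means were 0.405 ± 0.0946 (SD, n = 3) and 0.201 ± 0.101 (SD, n = 6), 0.80 in log2 units (95% interval 0.14 to 1.46, limma adjusted p = 0.0491). This call was kept in 7 of 17 other settings, with an adjusted p of up to 0.248 with quantile normalization. The position given for Selp on chromosome 1 (164115264 to 164220277) is shared in the table with F5 and Gm16548, and exons on the other strand overlap 624 bases of Selp. F5, which encodes coagulation factor V, and Gm16548 had lower mean FPKM after anti-CD40, 28.6 against 41.5 for F5 and 5.06 against 15.9 for Gm16548. The groups overlapped for F5 but not for Gm16548. Markers of platelets, which also carry P-selectin, had 3 of 7 genes called higher and 0 lower. That is 42.9%, beside 23.5% of all genes tested. Of these 3, Gp6 had a control mean of 0.0587 and overlapping groups, and passed the filter only through the treated mice. The mean log2 level of the platelet markers was 0.18 to 0.45 above the control mean in the treated mice and between -0.56 and 0.75 in the controls. Against these markers the difference in Selp was 0.44 (exact permutation p = 0.0714, adjusted p = 0.0989).

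The ligand of the selectins on white blood cells passed the test by a wider margin than Selp. Selplg, on chromosome 5 from 113817798 to 113830501, encodes PSGL-1, which P-selectin and E-selectin bind. Its FPKM was 7.37, 5.70 and 6.84 in treated mice 2, 5 and 9 and ran from 0.716 through 1.23 to 1.68 in the control mice, so that the lowest treated mouse was 3.40 times the highest control. The means were 6.64 ± 0.856 (SD, n = 3) and 1.21 ± 0.406 (SD, n = 6), a 5.48-fold difference and 2.41 in log2 units (SE 0.26, limma adjusted p = 4.14e-05).

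The integrin chains were all higher, by amounts that differed between partners. Itgb2, on chromosome 10 from 77530348 to 77565674, encodes CD18, the β2 chain shared by LFA-1, Mac-1 and the other β2 integrins. Its FPKM was 10.3, 8.79 and 10.2 in treated mice 2, 5 and 9 and ran from 0.716 through 1.16 to 2.19 in the control mice. The means were 9.77 ± 0.855 (SD, n = 3) and 1.22 ± 0.534 (SD, n = 6), an 8.03-fold difference and 2.99 in log2 units (SE 0.29, limma adjusted p = 2.07e-05).

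Itgal, on chromosome 7 from 127296260 to 127335137, encodes CD11a, the α chain of LFA-1 and the partner of CD18 that lymphocytes carry most. Its FPKM was 5.07, 3.76 and 3.95 in treated mice 2, 5 and 9 and ran from 1.48 through 1.83 to 2.77 in the control mice. Control mouse 4 stood above the other controls but below all treated mice. The means were 4.26 ± 0.706 (SD, n = 3) and 1.92 ± 0.443 (SD, n = 6), a 2.22-fold difference and 1.12 in log2 units (SE 0.19, limma adjusted p = 0.00077). Within each mouse the log2 ratio of Itgal to Itgb2 was lower after anti-CD40 by -1.87 (exact permutation p = 0.0238, adjusted p = 0.0429), and the groups did not overlap.

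Other α chains pair with CD18 on myeloid cells. Itgam, which encodes CD11b of Mac-1, had an FPKM of 5.63 ± 0.496 (SD, n = 3) in treated mice against 0.475 ± 0.147 (SD, n = 6) in controls (3.35 in log2 units, limma adjusted p = 2.06e-06). Its ratio to Itgb2 was 0.35 to 0.37 above the control mean in the treated mice and between -0.38 and 0.57 in the controls, a difference of 0.36 (exact permutation p = 0.190) that turned to -0.14 with a pseudocount of 1. Itgax, which encodes CD11c, had the largest log2 fold change among the integrin genes examined, 4.21 (adjusted p = 1.20e-06 from limma), although it depends on the pseudocount and was 2.55 with a pseudocount of 1.

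Itga4 encodes the α4 chain, CD49d. Its FPKM was 3.50, 2.86 and 3.11 in treated mice 2, 5 and 9 and ran from 0.547 through 0.675 to 0.888 in the control mice. The lowest treated mouse was 3.22 times the highest control, and the controls varied little. The means were 3.16 ± 0.320 (SD, n = 3) and 0.693 ± 0.118 (SD, n = 6), a 4.56-fold difference and 2.05 in log2 units (SE 0.16, limma adjusted p = 6.24e-06). The table gives Itga4 and Cerkl the same position on chromosome 2, from 79255426 to 79428988, and 1124 bases of their exons overlap on opposite strands. Cerkl was also higher, with a mean FPKM of 0.555 after anti-CD40 and 0.103 in control mice (1.71 in log2 units, limma adjusted p = 0.000143), and reads of the 2 genes may not have been kept apart.

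The α4 chain pairs with β1 to make VLA-4, the VCAM-1 receptor, or with β7 to make the receptor for MAdCAM-1. Itgb1, which many liver cells express, had an FPKM of 26.6 ± 2.31 (SD, n = 3) and 22.3 ± 2.33 (SD, n = 6), 0.25 in log2 units (95% interval -0.0083 to 0.51, limma adjusted p = 0.105). All treated mice lay above all controls for Itgb1, but the change did not pass the test. The ratio of Itga4 to Itgb1 was 1.79 higher on the log2 scale (exact permutation p = 0.0238, adjusted p = 0.0429). Itgb7 had an FPKM of 4.46 ± 0.238 (SD, n = 3) and 1.16 ± 0.282 (SD, n = 6), 1.89 in log2 units (limma adjusted p = 3.12e-05). The ratio of Itga4 to Itgb7 lay between 0.01 and 0.39 above the control mean in the treated mice and between -0.50 and 0.76 in the controls, and the difference of 0.16 did not pass the test (exact permutation p = 0.619). Itgal rose less than Itga4, by -0.92 on the log2 scale (exact permutation p = 0.0238, adjusted p = 0.0429).

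Markers of the cells that carry these molecules were read in the same libraries. The endothelial markers of the list did not move together. Of 12 genes, 2 were called higher (16.7%, beside 23.5% of all genes tested) and 4 lower (beside 21.7% of all genes tested). Among them were Ptprb at a log2 fold change of -1.10 and Esam at 0.78. Cdh5, the endothelial cadherin, had 0.43 (adjusted p = 0.0666 from limma). Cdh5 was called higher without control mouse 4 (0.52, limma adjusted p = 0.00928) and with Saa1, Saa2 and Saa3 left out and each mouse rescaled (0.79, limma adjusted p = 0.00706). That rescaling moved the median over all genes to 0.35. Cdh5 stood 0.44 above the median under it and 0.42 above the median in the main run. The mean log2 level of the 12 markers was -0.11 to 0.019 from the control mean in the treated mice and -0.070 to 0.094 in the controls. Their summed FPKM was 225 to 239 in the treated mice and 162 to 196 in the controls, with no overlap. That sum rests mostly on the 2 genes called higher, Egfl7 (mean 114 against 81.6) and Esam (73.3 against 42.9). It does not describe the list as a whole. Of 9 markers of liver sinusoidal endothelium, 5 were called lower and 1, Lyve1, higher, beside 21.7% and 23.5% of all genes tested. Set against the mean of the 12 endothelial markers within each mouse, Icam1 was higher by 3.10, Vcam1 by 2.25 and Icam2 by 0.66 on the log2 scale (exact permutation p = 0.0238 and adjusted p = 0.0429 for each). The same difference for Selp was 0.85 (exact permutation p = 0.0476, adjusted p = 0.0714). No such ratio is given for Sele, which was at the floor in all controls and in treated mouse 9. Ratios of Icam1, Icam2 and Vcam1 to leukocyte markers were not examined.

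All 13 genes of the list for all leukocytes were called higher, with a median log2 fold change of 2.31 and a summed FPKM of 1145 to 1649 in the treated mice against 160 to 259 in the controls. Ptprc, which encodes the pan-leukocyte protein CD45, had 2.60 in log2 units (limma adjusted p = 5.47e-05). Of the neutrophil markers 10 of 10 were called higher, but 4 of them had a control mean under the filter and were tested through the treated mice only, as was 1 marker each of T, NK and B cells. Of the T cell markers 7 of 8 were called higher, and of those of NK and B cells 6 of 6 each. Over all genes tested 23.5% were called higher. The markers of monocytes and macrophages went both ways, with 6 of 9 called higher, Adgre1 lower at -1.49, and Csf1r at -0.62 not past the test. Ly6g, also listed for neutrophils, was not among the genes with a value in every mouse. Prf1 of the NK list and Pax5 of the B cell list were under the filter. None of the markers read for neutrophils, T, NK or B cells was at the floor in all mice, but Pax5 was at the floor in every control.

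Against the mean of the 13 leukocyte markers, the members on white blood cells kept different places. Selplg differed by 0.12 (exact permutation p = 0.571) and Itga4 by -0.25 (exact permutation p = 0.333), with overlapping groups for both. With a pseudocount of 1, Selplg turned to -0.083 (exact permutation p = 0.5) and Itga4 passed at -0.59 (exact permutation p = 0.0238). Itgal was lower relative to these markers by -1.17 in log2 ratio (exact permutation p = 0.0238, adjusted p = 0.0429), and no treated mouse overlapped the controls. For Itgb2 the difference was 0.69 with overlapping groups, which did not pass after adjustment (exact permutation p = 0.0476, adjusted p = 0.0714), and with 1 control mouse left out it was between 0.60 without mouse 11 and 0.81 without mouse 4. Hepatocyte markers were lower, with 7 of 8 called lower and 1 higher, beside 21.7% and 23.5% of all genes tested. Of the cholangiocyte markers 2 of 5 were called higher, Sox9 (mean FPKM 54.2 against 4.72) and Spp1 (25.5 against 5.05). Krt7, Krt19 and Epcam did not pass the test and had overlapping groups. The summed FPKM of this list, 68.6 to 98.5 against 8.88 to 17.6, thus rests mostly on Sox9 and Spp1. The part of hepatocytes and cholangiocytes in the members' values was not tested. How much of each member's change comes with the number of white blood cells was not tested.

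**Figure D2:**
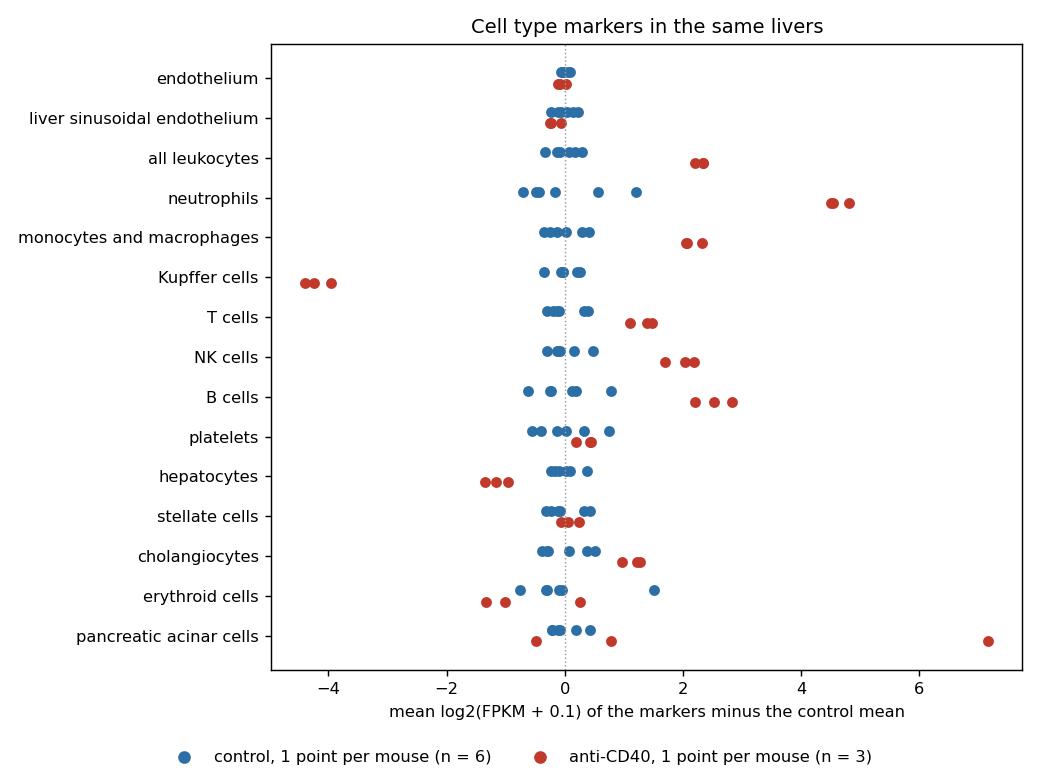
Mean log2(FPKM + 0.1) of each list of cell type markers in each mouse, less the control mean. The lists for all leukocytes, neutrophils, T, NK and B cells lie above all controls in the 3 anti-CD40 mice. So does the mean of the cholangiocyte markers, of which only Sox9 and Spp1 were called higher. Kupffer cell and hepatocyte markers lie below all controls, the endothelial markers overlap, and pancreatic markers are high in anti-CD40 mouse 5 at 7.17.

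**Figure D3:**
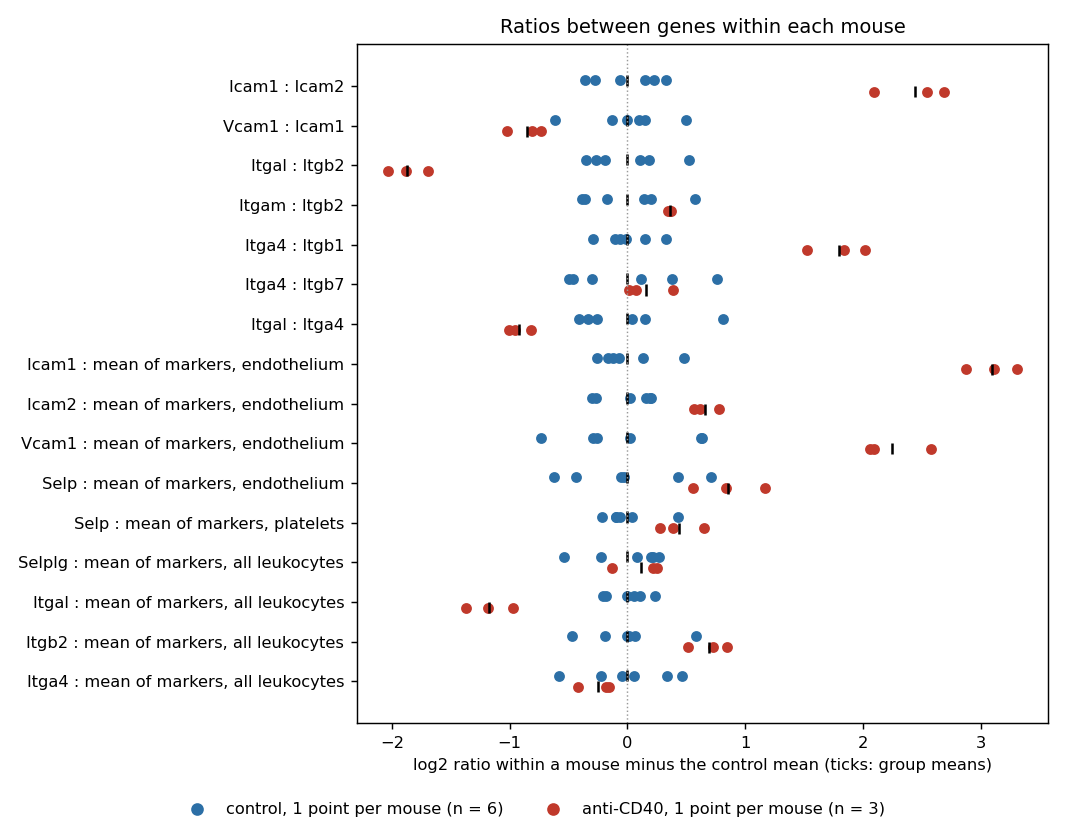
Log2 ratios between genes, or between a gene and the mean of a marker list, within each mouse, less the control mean, with ticks at the group means. The ratio of Icam1 to Icam2 is higher in all 3 anti-CD40 mice, that of Itgal to Itgb2 is lower in all 3, and that of Itga4 to Itgb7 overlaps between the groups.

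Other genes of the same steps were taken from 4 lists of related genes. In the list of endothelial adhesion and transmigration genes, 9 of the 15 tested were called higher and 4 lower, with a median log2 fold change of 0.60. The share called higher was 60%, and over all genes tested 23.5% were called higher and 21.7% lower. Madcam1, which encodes the vascular ligand of the α4β7 integrin, had the largest fitted change in the list. Its FPKM was 5.20, 3.20 and 2.93 in treated mice 2, 5 and 9 and in the control mice it was at the floor of 0.01 in mice 3, 8 and 12 and 0.0399, 0.0397 and 0.0871 in mice 4, 7 and 11. Madcam1 passed the filter only through the treated mice, so its call is no support for a change. The fitted difference of 4.85 in log2 units rests on the pseudocount and ran from 2.18 with a pseudocount of 1 to 6.70 with 0.01. Jam2 and Mcam, which encode junctional and endothelial adhesion proteins, had log2 fold changes of 1.3 and 1.28, but Mcam lost its call without anti-CD40 mouse 2 (limma adjusted p = 0.0846), without mouse 9 (0.0527) and with no filter (0.0703). Pecam1, which encodes CD31 and takes part in crossing of the vessel wall, had 0.60 with overlapping groups and lost its call without anti-CD40 mouse 5 (limma adjusted p = 0.0682) or 9 (0.0729). Of the 4 called lower, Podxl had -0.63, and Cd99l2 (-0.54) and Icam4 (-1.03) had overlapping groups. Vwf, which encodes the platelet-binding von Willebrand factor stored beside P-selectin, was the other, at -0.95. The mean FPKM of Vwf was 0.0717 after anti-CD40 and 0.232 in controls. Vwf passed the filter only through the controls, so its call is no support for a change. Without anti-CD40 mouse 9 the number called higher in this list was 4, and without mouse 2 it was 5.

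Of the 11 genes tested in the list of integrin subunits and Cd44, 8 were called higher and 0 lower. That is 72.7% higher, beside 23.5% of all genes tested, with a median log2 fold change of 1.14 in the list. After Itgax and Itgam the largest change was in Cd44, a hyaluronan receptor that binds neutrophils to sinusoids. Cd44 went from an FPKM of 3.73 ± 0.977 (SD, n = 6) to 27.3 ± 3.83 (SD, n = 3), 2.86 in log2 units (limma adjusted p = 2.88e-06). Itgb1, Itga5 and Itga9 did not pass the test, and Itgad, Itgae and Itga2 were under the filter.

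Of 14 genes tested in the list for integrin activation, 9 were called higher and 0 lower, with a median of 0.81. The share called higher was 64.3%, against 23.5% of all genes tested. The list was not split into genes that promote activation and genes that restrain it, so the counts do not show that activation rose. The largest changes of the list were in Cytip (log2 fold change 2.44), Apbb1ip (2.28) and Fermt3 (2.00), and were 1.33, 1.90 and 1.59 with a pseudocount of 1. Apbb1ip encodes the Rap1 effector RIAM, and Fermt3 encodes kindlin-3 of blood cells. Rap1a, Rasgrp2, Cyth1, Vcl and Sharpin did not pass the test. Of the 14 genes tested that build selectin ligands, 4 were called higher and 0 lower, with a median of 0.16. That is 28.6%, near the 23.5% of all genes tested, and without anti-CD40 mouse 2 the number was 2. The 4 genes were Gcnt1 (1.77) and Fut7 (0.94), which encode a core 2 branching enzyme and the fucosyltransferase VII of leukocytes, B4galt1 (0.62) and Chst2 (0.92). Fut7 lost its call with quantile normalization (0.53, limma adjusted p = 0.111) and without anti-CD40 mouse 2 (limma adjusted p = 0.0578).

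**Figure D4:**
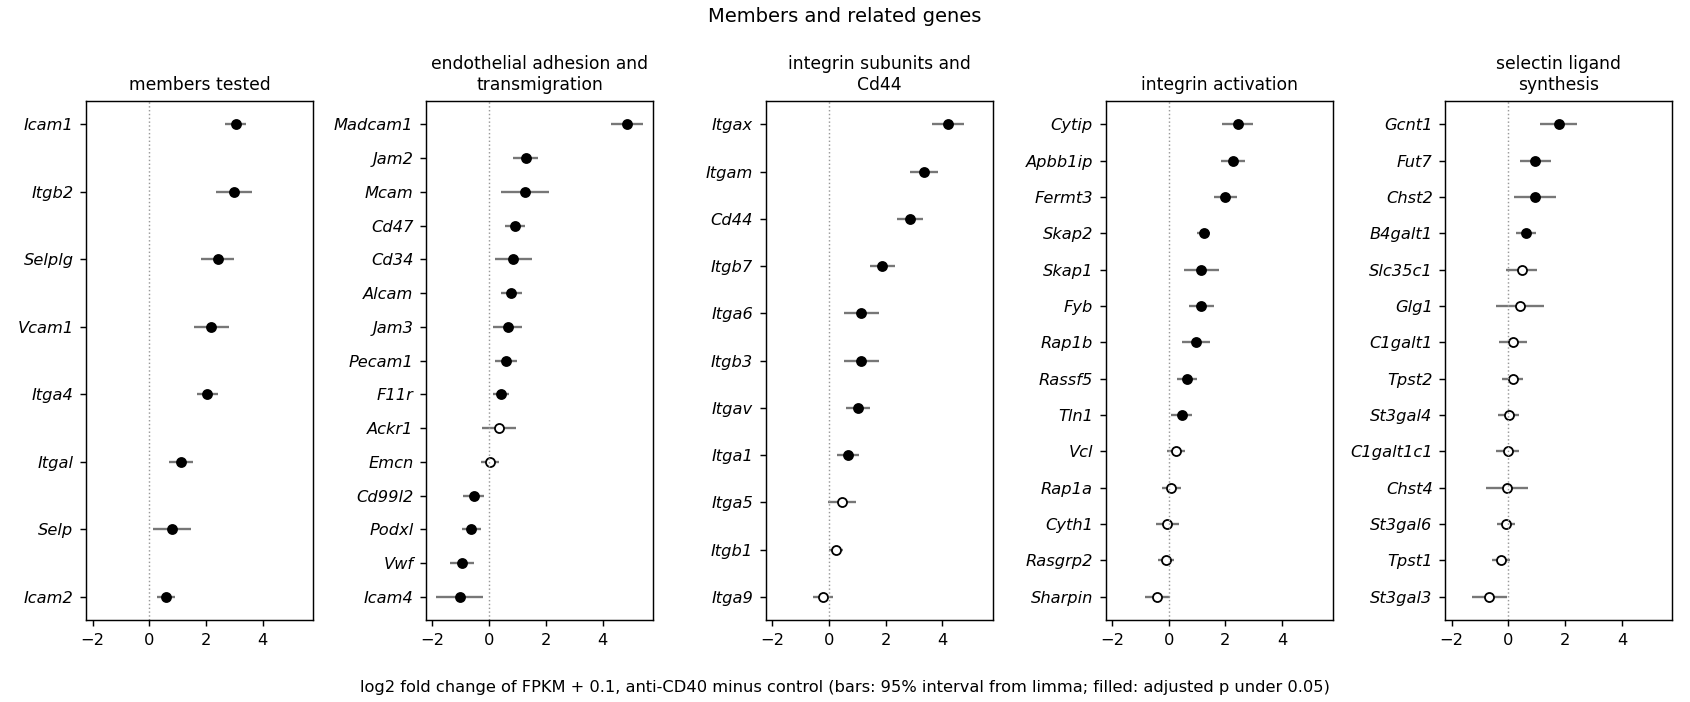
Log2 fold changes of FPKM + 0.1 (anti-CD40 minus control) with 95% intervals from limma for the 8 members tested and the genes tested in the 4 related lists, filled where the adjusted p is under 0.05. Icam1 and Itgb2 lead the members at 3.04 and 2.99, Icam2 is lowest at 0.60, and Madcam1, whose value of 4.85 rests on the pseudocount, is the highest gene of the related lists.

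The mice kept partly the same order across the members. Among the treated mice, mouse 2 was highest in 6 of the 8 members tested, and among the controls, mouse 4 was highest in 6 of the 8. Control mouse 4 also had the highest mean level of the controls for the markers of all leukocytes, neutrophils, monocytes and macrophages, T, NK and B cells, platelets, cholangiocytes, stellate cells and erythroid cells. Its erythroid markers had a summed FPKM of 50532 against 7494 to 13469 in the other 5 controls. Anti-CD40 mouse 5 held transcripts of pancreatic enzymes, with a summed FPKM of 880 against 27.5 and 32.0 in the other treated mice and 70.4 to 190 in the controls. In the controls that sum rests mostly on 1 gene, Cela1 (mean FPKM 106). What part the cells of these marker lists had in the members' values was not tested. Leaving out either mouse kept the call of each member other than Selp. Selp kept its call without mouse 4 and lost it without mouse 5 (adjusted p = 0.0713 from limma). It also lost the call without anti-CD40 mouse 2 (limma adjusted p = 0.107) or 9 (0.178), and without control mouse 3, 8, 11 or 12 (0.0727 to 0.0839).

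Genes with the most similar profile were found as the smallest root mean square difference of log2(FPKM + 0.1) over the 9 mice, each profile taken from its control mean, among the 13807 genes tested. They describe likeness in these mice only. For Icam1 they were Dclk1 (0.12) and Egr2 (0.16), for Vcam1 Ebi3 (0.21) and Sla (0.22), and for Icam2 Plin3 (0.11) and Snx11 (0.12). For Selplg they were H2-Ab1 (0.19) and Cytip (0.20), for Itgal Fyb (0.097) and Sowahc (0.11), for Itgb2 Parvg (0.15) and Ccr2 (0.17), for Itga4 Slco3a1 (0.16) and Eda2r (0.19), and for Selp Tubgcp5 and Lgi2 (0.18 each).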

How the data were processed

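Livers were stored in TRIzol and libraries were made with the QuantSeq 3′ mRNA kit and run on a NextSeq instrument. The authors aligned reads with STAR to mm10 and ran Cufflinks and CuffDiff, and they deposited FPKM values for 24341 genes in each mouse. The annotation and the filter behind the table are not given in the sources used here. Genes that lacked an estimate in 1 or more mice (15 genes) were dropped, and the values were not rescaled. limma 3.58.1, in R 4.3.3, with trended eBayes was run on log2(FPKM + 0.1) with treatment as the only factor, tested on simulated data first. CuffDiff, the test of the study, needs alignments and was not run. Ratios within a mouse were tested with 2-sided exact permutation tests, whose smallest p is 0.0238, and adjusted over 18 ratios. Each ratio with that p has the same adjusted p of 0.0429, whatever its size. The 18 ratios share genes and include those of Sele, which are not given. Whole reads were recovered for 86.2% of 3381 low genes, with a tolerance of 0.03 of a read that widened at higher read numbers. No count test was run on FPKM. The members and lists were chosen with earlier results of these data known. Genes named besides the members were ratio partners, Pecam1, Cdh5 and Ptprc, up to 3 of each related list with the largest change and groups apart, and the 2 most similar profiles of each member, and 1 further gene of the rule is not reported here. Other genes were named after their values were seen, where a count or an overlap touched on them. Alternatives were other pseudocounts, filters, scalings and eBayes settings, and leaving out each mouse. Python 3.11.15 with numpy 2.4.6, pandas 2.3.3 and matplotlib 3.10.9 did the rest.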

Additional observations from a re-analysis of the deposited data

Results flagged for a closer look

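Of 46 results with values in the 6 control mice, 1 had a mouse set apart from the rest, where chance gives about 2.3. The mean log2 level of the erythroid markers was highest in control mouse 4, and its gap to the next mouse was 0.684 of the range of the controls.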

How the results depend on the processing

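Icam1, Icam2, Vcam1, Selplg, Itgal, Itgb2 and Itga4 kept their direction and call in all 18 alternatives each. With a pseudocount of 1 and with Saa1, Saa2 and Saa3 left out and each mouse rescaled, the values ran from 2.48 to 3.40 for Icam1, 2.31 to 3.34 for Itgb2, 1.80 to 2.77 for Selplg, 0.85 to 1.48 for Itgal and 1.3 to 2.39 for Itga4, and Icam2 ran from 0.50 without anti-CD40 mouse 5 to 0.96 with that rescaling. The rescaling moved the median over all genes from 0.0056 to 0.35 and the share of calls that were higher from 52.0% to 77.4%. Under it Itgb1 was called at 0.62, which is 0.27 above that median, and with quantile normalization at 0.44. Selp lost its call with a pseudocount of 0.01 (log2 fold change 1.1, adjusted p = 0.0628 from limma), with no filter (0.80, adjusted p = 0.0962) and with quantile normalization (0.38, adjusted p = 0.248). With each mouse left out it ran from 0.65 to 0.93, with adjusted p from 0.0155 to 0.178. The number of members called higher was 7 or 8 throughout. With each mouse left out, the endothelial adhesion list had 4 to 9 genes called higher and the selectin ligand list 2 to 4. Without an anti-CD40 mouse the exact permutation test cannot go below 0.0714, so no ratio can pass there. With a pseudocount of 1 the ratio of Itgam to Itgb2 turned to -0.14, that of Itga4 to Itgb7 to -0.054 and that of Selplg to leukocyte markers to -0.083, and Itga4 against leukocyte markers passed the test at -0.59. No paired analysis was possible because the mouse numbers of the groups differ. Sele was at the floor in 7 of the 9 mice, and the cause was not tested.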
